A study of Homo sapiens with 3 samples.

Results

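The genes described here are those of the SR proteins and of the heterogeneous nuclear ribonucleoproteins (hnRNPs), the main families of proteins that bind pre-mRNA and steer its splicing. Members were chosen by symbol alone: names of SRSF followed by a number, and names that begin with HNRNP and hold no hyphen, whatever their counts, with SRSF2, HNRNPU and HNRNPA2B1 left out. This gave 38 of the 26485 gene names in the count tables, 11 SR protein genes and 27 hnRNP genes. The material was total RNA of HEK293, an established human line from embryonic kidney that carries adenovirus DNA, grown in medium with fetal calf serum, with no treatment named, and sequenced in 3 replicates of 1 condition after removal of ribosomal RNA. No source used here says that the replicates were separate cultures, and p-values therefore measure the spread between these samples, which may be technical.

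Gene names collected 412066 counts in replicate 1, 483114 in replicate 2 and 289241 in replicate 3, or 2.02% ± 0.396 (SD, n = 3) of all records, so most members rest on few counts. A count of 3 equals 6.86, 6.92 and 9.89 CPM in these libraries, where CPM are counts scaled to a common library total, and a member with no count in a library may lie anywhere below that. Replicate 2 stood apart, with a biological coefficient of variation of 0.314 against replicate 1 and 0.294 against replicate 3, whereas replicates 1 and 3 gave 0.177. The library kit marks the strand of the RNA, but the sources used here do not say whether the counting took the strand into account. Whether the counts under a name came from the strand of that gene was not tested. Counts under a name are therefore not shown to be levels of the mRNA of that gene. Among widely expressed genes, ACTB received 1, 0 and 1 counts in replicates 1, 2 and 3, ACTG1 received 7, 0 and 2, and B2M received none. These genes were chosen after their values were seen. Of 7 marker genes of the line, KRT8, NEFL, VIM and LIN28B had counts in all libraries, PAX2 had none, and NEFM and KRT18 had 1 count each. Of these 7 markers, 6 share exonic bases with a gene on the other strand. Among markers of other cell types, PTPRC and HBB of blood, ALB of liver and COL1A1 of fibroblasts had no count.

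SR proteins carry RNA recognition motifs followed by a tail rich in alternating arginine and serine, which is phosphorylated and recruits the splicing machinery to exonic enhancers. hnRNPs package nascent transcripts, often through glycine-rich tails and RGG boxes, and many of them silence exons, so the families are known for opposing effects on the same splice sites. Both shuttle or reside in the nucleus, and several members control their own mRNA through poison exons.

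The stretches of coding sequence below are shown as examples of the arginine-serine and glycine codons that give the families their character. They were chosen by codon content alone and not matched to protein domains, so a stretch may reach beyond a tail. The SRSF symbol itself stands for a serine- and arginine-rich splicing factor, so the arginine and serine content of its members is a description of how they were named and not an independent finding. For the SR protein genes, the stretch of 30 codons with most arginine and serine codons side by side is printed 5′ to 3′ with those codons in capitals. For HNRNPDL, the stretch of 30 codons with most glycine codons is printed with the glycine codons in capitals. The sequences are spliced and come from GENCODE release 29 on GRCh38. They span chr17:58005457-58005546 for SRSF1, chr12:120462085-120463961 for SRSF9, chr1:23971172-23971261 for SRSF10 and chr1:29150147-29154739 for SRSF4, all on the minus strand. The HNRNPDL stretch spans chr4:82426608-82427253 on the minus strand.
SRSF1: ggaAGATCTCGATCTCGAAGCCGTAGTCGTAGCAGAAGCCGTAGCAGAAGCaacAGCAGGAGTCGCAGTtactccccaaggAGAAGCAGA
SRSF9: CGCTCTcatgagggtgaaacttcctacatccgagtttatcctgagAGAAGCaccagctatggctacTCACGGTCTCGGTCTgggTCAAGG
SRSF10: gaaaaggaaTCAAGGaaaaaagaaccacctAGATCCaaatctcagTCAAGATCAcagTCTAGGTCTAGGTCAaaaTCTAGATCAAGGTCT
SRSF4: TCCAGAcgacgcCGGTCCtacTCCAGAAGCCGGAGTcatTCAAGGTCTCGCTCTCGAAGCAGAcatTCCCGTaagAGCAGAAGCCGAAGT
HNRNPDL: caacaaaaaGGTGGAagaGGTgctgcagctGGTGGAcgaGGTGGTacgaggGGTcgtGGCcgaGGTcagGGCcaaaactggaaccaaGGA
In SRSF1 and SRSF4, 24 of the 30 codons were marked, against 17 in SRSF10 and 11 in SRSF9. The SRSF9 stretch covers codons 171 to 200, with the marked codons mostly towards its end, so it is not all arginine-serine tail. The glycine stretch of HNRNPDL held 12 marked codons.

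Over whole coding sequences the families did not overlap in this feature. Pairs of adjacent arginine and serine codons made up 4.09% of codon pairs in SRSF9, the lowest SR member, and 22.9% in SRSF4, the highest, with a median of 16.1% over 11 genes. Among the 23 hnRNP genes with a complete coding sequence they made up 0.242% to 2.30%, with a median of 1.03%. Glycine codons did not separate the families, at 3.82% to 13.8% in SR genes and 7.52% to 27.2% in hnRNP genes. The member that collected most counts, SRSF9, was also the SR gene with the smallest share of such pairs, holding 9 such pairs in 221 codons against 113 in the 494 codons of SRSF4.

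**Figure D1:**
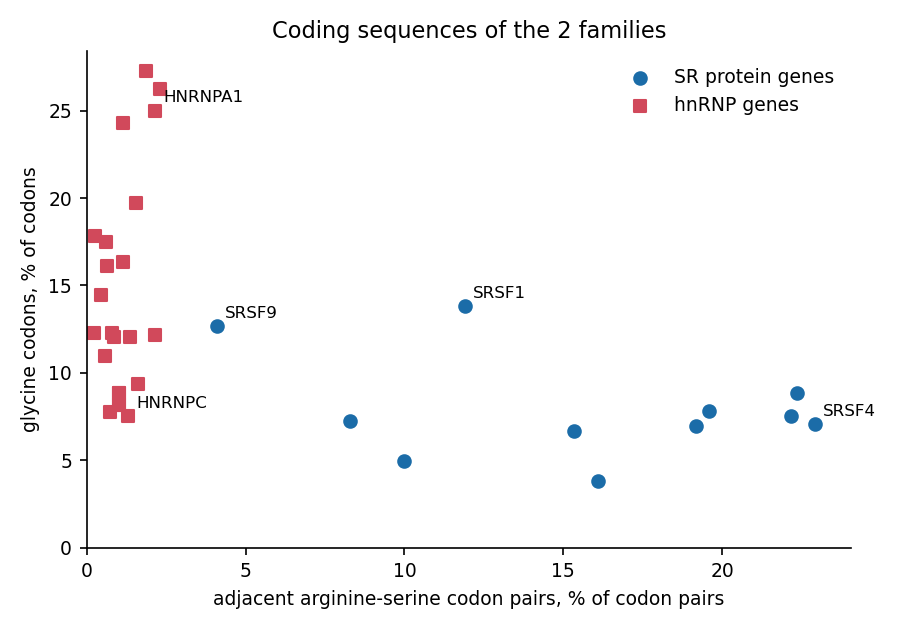
Each point is the longest complete coding sequence of a member; the horizontal axis gives adjacent arginine-serine codon pairs in % of codon pairs and the vertical axis glycine codons in % of codons, with 11 SR protein genes as circles and 23 hnRNP genes as squares. All SR genes lie at or above 4.09% on the horizontal axis and all hnRNP genes at or below 2.30%, with SRSF9 nearest to the hnRNP genes.

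The SR protein genes together received more counts than the hnRNP genes in every library, although they are fewer. Their summed counts were 346, 331 and 213 in replicates 1, 2 and 3, against 191, 178 and 196 for the hnRNP genes. Of all gene-assigned counts the SR genes held 0.0840%, 0.0685% and 0.0736% in the same order, a mean of 0.0754% ± 0.00787 (SD, n = 3), and the hnRNP genes 0.0464%, 0.0368% and 0.0678%, a mean of 0.0503% ± 0.0158 (SD, n = 3). The 95% Wilson intervals of the 2 shares were apart in replicates 1 and 2, and in replicate 3 they overlapped, from 0.0644% to 0.0842% for SR and from 0.0589% to 0.0779% for hnRNP genes. These intervals cover counting error only. With 3 libraries a two-sided sign-flip test cannot give a p below 0.25, so no p is given for the families.

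Replicate 3 differed from the others in the balance of the families. SR counts were 64.4% of the counts of both families in replicate 1 (Wilson interval 60.3% to 68.4%), 65.0% in replicate 2 (60.8% to 69.1%) and 52.1% in replicate 3 (47.2% to 56.9%). The interval of replicate 3 did not overlap the others. These intervals again cover counting error only, and over the tested names no pair of libraries agreed within it. As a share of all gene-assigned counts, the SR value of replicate 3 lay between those of replicates 1 and 2, and the hnRNP value lay above both. Shares of single members in the joint counts differed in both directions within each family. HNRNPDL took 15.7% of the joint counts there against 11.6% and 8.45% in replicates 1 and 2, and HNRNPC 6.11% against 2.79% and 3.54%. SRSF10 took 7.09% in replicate 3 against 6.33% and 2.95%. Lower in replicate 3 than in both others were HNRNPAB with 3.18% against 5.96% and 3.54%, and HNRNPA1 with 5.13% against 5.96% and 6.29%. SRSF9 took 24.7% in replicate 3, 24.8% in replicate 1 and 34.4% in replicate 2. SRSF8 took 2.20% in replicate 3 against 8.57% and 5.11%, and SRSF12 0.244% against 1.86% and 4.13%. Replicate 3 was also the library with the fewest gene-assigned counts. Without replicate 2, the library that stood apart, the mean SR percentage was 58.3%. The part of depth in this shift was not tested.

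The order of the family totals depended on SRSF9. It received 133, 175 and 101 counts, 46.0% of all SR counts over the 3 libraries. Without it the SR genes had 213, 156 and 112 counts, and their share of both families was 52.7%, 46.7% and 36.4%, below that of the hnRNP genes in replicates 2 and 3. The Wilson intervals without SRSF9 were 47.9% to 57.5%, 41.4% to 52.1% and 31.2% to 41.9%. The difference between the families thus exceeded counting error only in replicate 3. Per kilobase of merged exon the order held with and without SRSF9. All SR genes pooled had 12.3, 11.8 and 10.9 CPM per kilobase over 64.4 kb, the remaining 10 had 8.03, 5.93 and 6.08, and the 27 hnRNP genes had 3.73, 3.51 and 5.52 over 117 kb. On this scale the lowest SR library without SRSF9 lay above the highest hnRNP library. SRSF1, which like SRSF9 shares exonic bases with a gene on the other strand, was still among these 10. Over members with no such overlap, SR genes had 85 counts in replicate 3 against 160 for hnRNP genes. Pooled per kilobase, the CPM of those members put hnRNP genes above SR genes in replicate 3 and below them in the other libraries. The order on this scale thus did not hold in every library once members with such an overlap were left out.

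**Figure D2:**
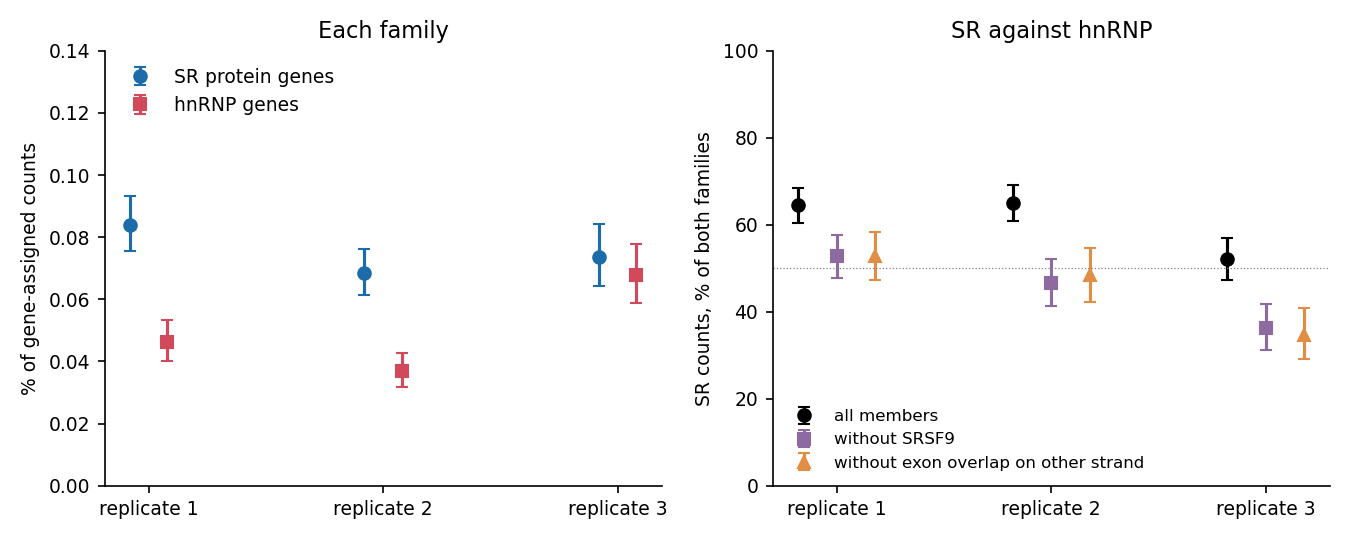
The left panel gives the counts of each family in % of gene-assigned counts per library with 95% Wilson intervals, and the right panel SR counts in % of the counts of both families, for all members, without SRSF9 and for members with no exon overlap on the other strand. With all members the 3 libraries lie at 64.4%, 65.0% and 52.1%, and without SRSF9 at 52.7%, 46.7% and 36.4%.

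SR protein genes were also detected more evenly. All 11 had a count, and 10 had a count in every library, SRSF7 being the exception. Of the 27 hnRNP genes, 19 (70.4%) had a count and 10 (37.0%) had one in every library. Of the 23 hnRNP genes annotated as protein-coding, 17 (73.9%) had a count and 9 (39.1%) had one in every library. The shares over all names were 54.7% for a count anywhere and 29.2% for a count in every library, and for names of protein-coding genes they were 62.7% and 33.3%. The hnRNP shares thus lay not far above those of protein-coding names. The level of 10 or more counts in each library was met by 5 SR genes (45.5%) and 5 hnRNP genes (18.5%), against 9.68% of all names and 10.6% of names of protein-coding genes. The median CPM over the 11 SR genes was 43.4, 32.3 and 29.7 in replicates 1, 2 and 3 (35.1 ± 7.31, SD, n = 3). Over the 27 hnRNP genes it was 2.29, 0 and 6.59 (2.96 ± 3.35, SD, n = 3), or 1.08 without replicate 3 and 4.68 without replicate 2. Over all names it was 0 in each library. The 8 hnRNP genes with no count lower that median, and over the 19 with a count it was 11.6 ± 4.21 CPM (SD, n = 3), still below that of the SR genes.

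**Figure D3:**
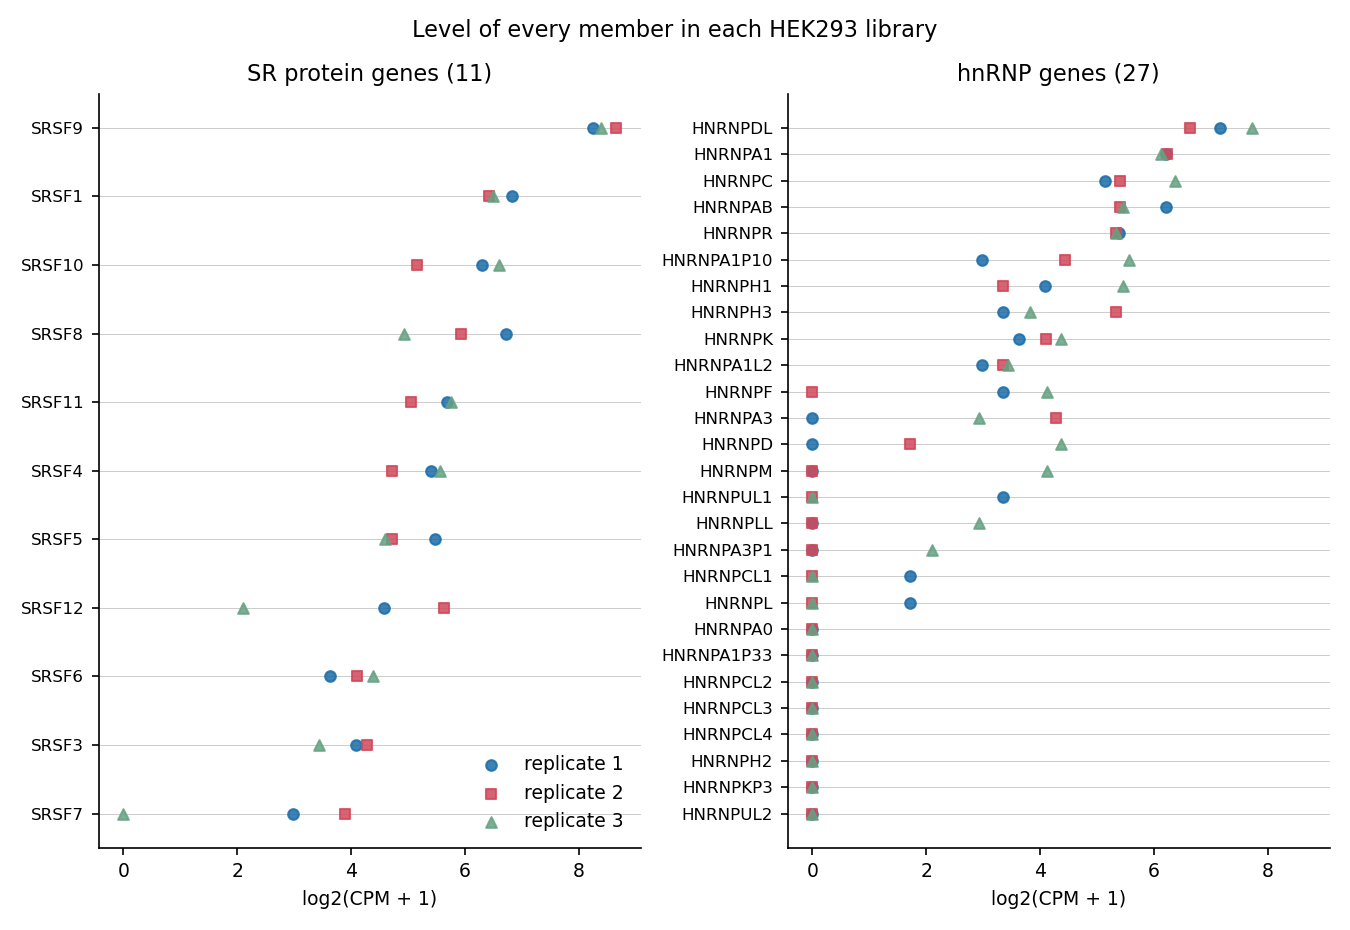
Each row is a member and each symbol a library; the axis is log2(CPM + 1), on which a value of 0 is a library with no count. SRSF9 lies to the right of all other members in each library, and 8 hnRNP genes have all 3 libraries at 0.

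Among the SR genes that act as general splicing activators, SRSF9 and SRSF1 led. SRSF9, a close relative of SRSF1 with a short arginine-serine tail, had 304, 403 and 333 CPM, a mean of 347 ± 51.1 (SD, n = 3). SRSF1, which binds purine-rich enhancers and also acts in nonsense-mediated decay and translation, received 49, 37 and 27 counts, or 95.4 ± 14.5 CPM (SD, n = 3). The libraries of SRSF9 all lay above those of SRSF1. SRSF9 lies on chromosome 12 from 120461668 to 120469793 on the minus strand, and SRSF1 on chromosome 17 from 58003360 to 58007346 on the minus strand (GRCh38).

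SRSF4, SRSF5 and SRSF6, which share paired RNA recognition motifs and long arginine-serine tails, were lower. SRSF4 received 18, 11 and 14 counts, SRSF5 19, 11 and 7, and SRSF6 5, 7 and 6. SRSF4 had more counts than SRSF6 in every library, and SRSF5 fell between 23.1 and 43.4 CPM. SRSF3 and SRSF7 also serve as adaptors for mRNA export. SRSF3, the smallest SR protein, received 7, 8 and 3 counts, and SRSF7, which carries a zinc knuckle, received 3, 6 and 0. Both were at the low end of the family, and their libraries overlapped.

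SRSF10 represses splicing when it is dephosphorylated during heat shock or mitosis, and SRSF12 is its nearest relative. SRSF10 received 34, 15 and 29 counts, or 77.7, 34.6 and 95.6 CPM, lowest in replicate 2. SRSF12 received 10, 21 and 1 counts and was highest in replicate 2, so that the order of this pair was not the same in all libraries. SRSF11, which contacts the splicing factor that recognises the polypyrimidine tract, received 22, 14 and 16 counts, or 45.1 ± 11.2 CPM (SD, n = 3). SRSF8, a gene related to SRSF2, received 46, 26 and 9 counts, or 105, 59.9 and 29.7 CPM, a range of 3.54-fold between libraries.

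HNRNPDL led the hnRNP genes. It encodes a relative of HNRNPD and received 62, 43 and 64 counts, or 142, 99.1 and 211 CPM, a mean of 151 ± 56.4 (SD, n = 3). It held 29.9% of all hnRNP counts over the 3 libraries. HNRNPD itself, whose product binds AU-rich elements and promotes mRNA decay, received 0, 1 and 6 counts, and these libraries all lay below those of HNRNPDL. HNRNPAB, another relative, received 32, 18 and 13 counts, highest in replicate 1. HNRNPDL and HNRNPD lie on chromosome 4, from 82422564 to 82430408 and from 82352498 to 82374503, both on the minus strand.

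HNRNPA1, which binds exonic silencers and competes with SRSF1, received 32, 32 and 21 counts, or 73.1, 73.8 and 69.2 CPM. HNRNPR, which acts in mRNA transport and splicing, received 18, 17 and 12 counts, or 41.1, 39.2 and 39.6 CPM. These were the steadiest of the members with at least 10 counts in every library, each within a 1.07-fold range. HNRNPC, which binds uridine tracts on nascent RNA, received 15, 18 and 25 counts and was highest in replicate 3, at 82.4 CPM against 34.3 and 41.5. HNRNPA3, a relative of HNRNPA1, received 0, 8 and 2 counts.

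The hnRNPs that bind guanine tracts were low and uneven. HNRNPH1 received 7, 4 and 13 counts, HNRNPH3 received 4, 17 and 4, HNRNPF received 4, 0 and 5, and HNRNPH2 received none. HNRNPH1 was highest in replicate 3 and HNRNPH3 in replicate 2, so their order changed between libraries. HNRNPK, which binds cytidine-rich RNA through KH domains, received 5, 7 and 6 counts. HNRNPM received 0, 0 and 5, and HNRNPUL1, a relative of HNRNPU, received 4, 0 and 0. HNRNPL, which binds CA repeats, received 1, 0 and 0 counts and its relative HNRNPLL 0, 0 and 2. HNRNPA0, HNRNPUL2, HNRNPCL2, HNRNPCL3, HNRNPCL4, HNRNPKP3 and HNRNPA1P33 were the other 7 genes without a count, and HNRNPCL1 and HNRNPA3P1 had 1 count each in total. A name with no count here does not show that the gene is silent. The parts of depth and of the counted strand in these low counts were not tested.

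HNRNPA1 has processed copies among the members, which bears on what a count under each name means. The copies were aligned with the HNRNPA1 coding sequence of 960 bases. HNRNPA1P10, a pseudogene on chromosome 19, differed at 4 of 959 aligned bases (99.6% identity), HNRNPA1L2 on chromosome 13 at 15 of 960 (98.4%), and HNRNPA1P33 on chromosome 10 at 22 of 558 (96.1%). The sources used here do not give the read length. With windows of 50 bases, 88.4% of the HNRNPA1P10 transcript, 53.3% of the HNRNPA1L2 transcript and 22.8% of the HNRNPA1 transcripts occurred unchanged in a transcript of a gene elsewhere.

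HNRNPA1P10 received 3, 9 and 14 counts and HNRNPA1L2 3, 4 and 3, and HNRNPA1 with its 3 copies had 38, 45 and 38 in sum. The split of counts among these names is uncertain where they share sequence. Shared sequence was more frequent among hnRNP genes. More than 10% of the 50-base windows were shared with a gene elsewhere in 10 of 27 hnRNP genes, up to 94.0% in HNRNPCL4, and in none of the 11 SR genes, where SRSF6 had the highest share at 5.97%. SRSF1 and SRSF9 had no shared window. Of the 8 members without a count, HNRNPCL2, HNRNPCL3, HNRNPCL4 and HNRNPA1P33 were above 10%, whereas HNRNPA0, HNRNPUL2 and HNRNPKP3 shared none.

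Per kilobase of merged exon, the scale on which different genes can be set side by side, SRSF9 stood alone. It had 92.6 ± 13.7 CPM per kilobase, followed by SRSF1 with 28.6 ± 4.34, HNRNPDL with 27.5 ± 10.3, HNRNPA1P10 with 25.6 ± 20.7 and HNRNPAB with 24.5 ± 8.35 (SD, n = 3 each). SRSF8 and HNRNPA1 followed with 16.1 ± 9.43 and 14.2 ± 0.485 (SD, n = 3 each). All other members with a count in every library lay between 2.08 ± 0.619 (SRSF3) and 7.21 ± 3.55 (HNRNPC) CPM per kilobase (SD, n = 3). In this order of 20 members, neighbours were separate in all libraries in 2 of 19 cases, between SRSF9 and SRSF1 and between HNRNPA1 and HNRNPC. The other 17 neighbouring pairs overlapped between libraries. The median per kilobase over the 11 SR genes was 5.93, 3.81 and 5.19 in replicates 1, 2 and 3 (4.98 ± 1.08, SD, n = 3). Over the 27 hnRNP genes it was 0.335, 0 and 2.45 (0.930 ± 1.33, SD, n = 3), or 0.158 without replicate 3 and 1.47 without replicate 2.

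**Figure D4:**
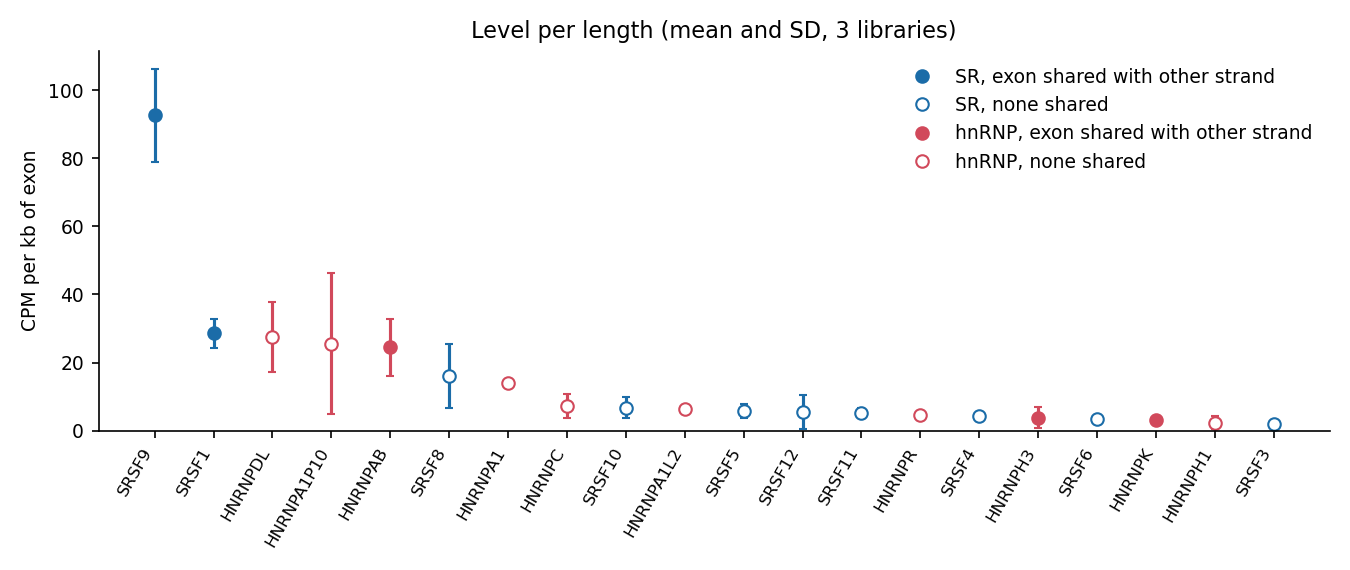
Points are mean CPM per kilobase of merged exon with SD over 3 libraries, for the 20 members with a count in every library; filled points share exonic bases with a gene on the other strand. SRSF9 lies at 92.6 and the next member, SRSF1, at 28.6.

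Variation between replicates beyond counting noise was tested for the 10 members with at least 10 counts in every library, in an edgeR Poisson fit over all 2564 names that passed this filter. SRSF10 passed at an adjusted p of 0.00699, HNRNPDL at 0.00208 and HNRNPC at 0.0352. These are 1 of 5 SR and 2 of 5 hnRNP genes, against 45.8% of all names tested, 44.2% of the 2036 protein-coding names tested and 41.9% of the 2031 names whose total count lay in the range of the tested members. The members' 3 of 10 is no more than that background. The 3 called members were highest in replicate 3, so that 3 of 10 tested members were called with replicate 3 highest, against 324 of all 2564 names tested (12.6%), or 324 of the 1175 called. SRSF10 and HNRNPDL were lowest in replicate 2, 2 of 10 tested members against 17% of all names tested. Nothing particular to the members is read from counts this small.

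From the lowest to the highest library the CPM of SRSF10 differed 2.76-fold, that of HNRNPC 2.40-fold and that of HNRNPDL 2.13-fold. The other 7 tested members, SRSF1, SRSF4, SRSF9, SRSF11, HNRNPA1, HNRNPAB and HNRNPR, had adjusted p between 0.0811 (SRSF9) and 0.991 (HNRNPR) in edgeR's Poisson fit. A p that misses the threshold does not show that they were equal in all libraries. In counts simulated at the same depth with Poisson noise alone, the test called 34.8% of 66 genes changed 1.5-fold in replicate 2. It called 82.3% of 62 genes changed 2-fold. The real libraries varied beyond Poisson noise, so these shares need not hold for them. Without replicate 2 the fit called 0 of 10 tested members, with 2 at an unadjusted p under 0.05, and 9.45% of all names tested. HNRNPC lost its call whichever library was left out, with adjusted p of 0.0744, 0.0599 and 0.613 without replicates 1, 2 and 3. HNRNPDL lost it without replicate 2 (0.145) and without replicate 3 (0.262), and SRSF10 without replicate 2 (0.678). SRSF9 gained a call without replicate 3, at an adjusted p of 0.00969 in edgeR's Poisson fit.

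**Figure D5:**
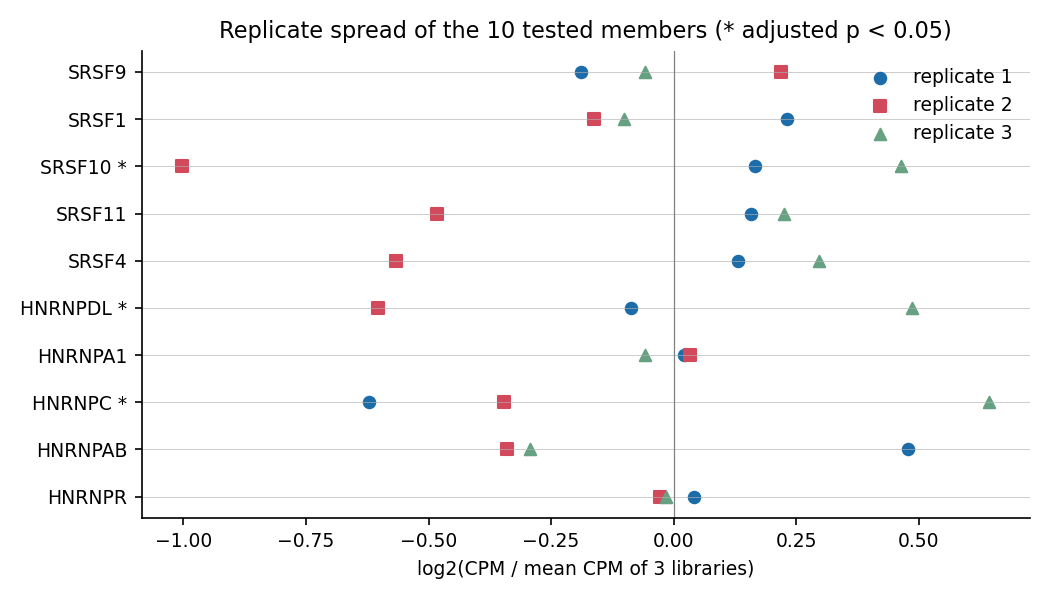
Each row is a member with at least 10 counts in every library and each symbol a library; the axis is log2 of the CPM over the mean CPM of 3 libraries, and an asterisk marks an adjusted p under 0.05. SRSF10, HNRNPDL and HNRNPC have replicate 3 at the right, at 0.46, 0.49 and 0.64, and HNRNPR and HNRNPA1 lie close to 0 in all libraries.

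Exons shared with a gene on the other strand were found in 2 of 11 SR genes (18.2%) and 7 of 27 hnRNP genes (25.9%), against 31.7% of the 24641 names matched to the annotation. In SRSF9, 1729 of 3744 exonic bases (46.2%) lie opposite exons of GATC, a subunit gene of the mitochondrial glutamyl-tRNA amidotransferase, 141 of them in the SRSF9 coding sequence. GATC received 1102, 1053 and 915 counts, 7.65 times the mean CPM of SRSF9. In SRSF1, 440 of 3340 exonic bases lie opposite AC015813.5, a name not used in the count tables. SRSF9 and SRSF1 were the SR members with the highest level both in CPM and per kilobase, and they held 52.6%, 64.0% and 60.1% of SR counts. Among hnRNP genes the shared part was smaller, from 1.66% of the exon length in HNRNPA3 to 9.14% in HNRNPAB, and the 7 genes held 23.6%, 28.7% and 18.4% of hnRNP counts on 32.3% of the exon length. Over all matched names, those with such an overlap make up 40.6% of the exon length and held 76.2% ± 1.62 (SD, n = 3) of the counts.

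Partners with a name in the tables had more counts than the member in every library. Opposite HNRNPH3, RUFY2 received 207, 189 and 155 counts against 4, 17 and 4. Opposite HNRNPAB, PHYKPL received 41, 33 and 30 against 32, 18 and 13. Opposite HNRNPUL1, TGFB1 received 9, 5 and 8 against 4, 0 and 0. HNRNPA1, HNRNPC, HNRNPDL and HNRNPR share no exonic base with the other strand, nor do SRSF4, SRSF8, SRSF10 and SRSF11. Over the members with no such overlap, SR genes had 164, 119 and 85 counts and hnRNP genes 146, 127 and 160, so that SR genes held 52.9%, 48.4% and 34.7% of the joint counts. The Wilson intervals of the first 2 shares include 50%, from 47.4% to 58.4% and from 42.2% to 54.6%, and that of replicate 3 lies below it, with an upper bound of 40.9%. The part of the other strand in the counts of SRSF9 and SRSF1 was not tested.

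Related genes were compared as pairs within a library, in log2 of CPM + 0.5 and not per length. Of 17 pairs, 10 kept 1 order in all libraries. SRSF9 exceeded SRSF1, with a log2 ratio of SRSF1 to SRSF9 of -1.86 ± 0.40, HNRNPA1 exceeded HNRNPA1L2 with a log2 ratio of 3.00 ± 0.29, and SRSF4 exceeded SRSF6 with 1.21 ± 0.58 (SD, n = 3 each). SRSF3 over SRSF7, SRSF5 over SRSF6, HNRNPA1 over HNRNPA3, HNRNPDL and HNRNPAB over HNRNPD, HNRNPH1 over HNRNPF and HNRNPH1 over HNRNPH2 were the other 7, each with a partner below 10 counts in some library. The same limit holds for HNRNPA1L2, with 3, 4 and 3 counts, and SRSF6, with 5, 7 and 6, in the ratios given first. The order changed, tied or could not be read for SRSF10 and SRSF12, HNRNPH1 and HNRNPH3, HNRNPL and HNRNPLL, HNRNPM and MYEF2, HNRNPC and RALY, HNRNPR and SYNCRIP, and HNRNPUL1 and HNRNPUL2.

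Other genes of the same machinery are given beside all names, of which 54.7% had a count. Among 12 kinases, arginine methylases and import receptors that act on SR proteins and hnRNPs, 11 (91.7%) had a count and 1 was tested. This was CLK3, a kinase of SR proteins, with 20, 30 and 16 counts and an adjusted p of 0.436 in edgeR's Poisson fit (unadjusted 0.335). SRPK2, another such kinase, received 3, 25 and 4 counts, and the import receptor TNPO1 10, 9 and 8. CLK2 had no count. Exonic bases were shared with the other strand in 7 of these 12 genes (58.3%), against 31.7% of matched names. Among the 7 were CLK3 with 1360 bp, SRPK2 with 234 bp and TNPO1 with 254 bp.

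Among 20 SR-related proteins, 17 (85%) had a count, 6 (30%) had enough counts to be tested, against 9.68% of all names, and 3 of these (50%) were called, against 45.8% of all names tested. ACIN1, a component linked to the exon junction complex, received 126, 145 and 127 counts with an adjusted p of 0.0294, and 640 bp of its exons lie opposite C14orf119. LUC7L3, related to a component of the U1 particle, received 16, 32 and 47 counts with an adjusted p of 3.08e-06 and shares no exon with the other strand. SRSF2 was the third, with 29, 24 and 37 counts and an adjusted p of 0.0158 in edgeR's Poisson fit. It shares 1106 bp of its exons with the other strand, most of any partner with MFSD11. SON, a nuclear speckle protein, received 43, 47 and 21 counts and was not called. U2AF1, LUC7L and ARGLU1 had no count.

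Among 25 genes whose products belong to hnRNP complexes under other names or were left out of the family, 23 (92.0%) had a count and 3 (12.0%) were tested. HNRNPU was called at an adjusted p of 0.000245 in edgeR's Poisson fit, 1 of 3 (33.3%) against 45.8% of all names tested. MATR3, a nuclear matrix protein, led with 30, 37 and 29 counts, ahead of HNRNPU with 29, 18 and 41 and ILF2 with 15, 23 and 23. PTBP1, the polypyrimidine tract-binding repressor also called hnRNP I, received 1, 0 and 0 counts, and HNRNPA2B1 12, 8 and 9. Of the 25 genes, 13 (52.0%) share exonic bases with the other strand, against 31.7% of matched names. HNRNPU shares 3502 bp, most of any partner with COX20, ILF2 shares 43 bp and MATR3 shares none. Putting SRSF2, HNRNPU and HNRNPA2B1 back into their families gave SR shares of both families of 61.8%, 63.5% and 50.4%.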

How the data were processed

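The authors deposited, for each of 3 HEK293 libraries, unnormalised counts by gene symbol. Their 5 closing summary lines entered neither library sizes nor tests (91.2% of records in no feature, 6.77% not unique, 0.0184% ambiguous). Per the submitters' processing notes, Trimmomatic, TopHat2 2.2.5 and HTSeq 0.11.2 were used with hg38; the sources used here do not name the annotation, the strand option or the read layout. The sample titles speak of mRNA sequencing, whereas the protocols describe rRNA depletion. CPM were computed on TMM effective library sizes with edgeR 4.0.16 (R 4.3.3).

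The test covered names with 10 or more counts in each library and used a Poisson fit in edgeR (glmFit, dispersion 0), the deviance against a chi-square distribution, with Benjamini-Hochberg adjustment over all names tested and a threshold of 0.05. No contrast between groups exists. No pair of libraries agreed within sampling noise (chi-square per degree of freedom of 3.13 or more). Alternatives were DESeq2 1.42.0 size factors, total counts, no filter, a Pearson statistic, other denominators, lengths and overlap rules, and leaving out each replicate. The script was tested on data simulated with Poisson noise alone, where 0.221% of 2264 unchanged genes were called. That share need not hold for the real libraries.

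GENCODE release 29 (GRCh38) held 23900 of the names and, as older symbols, 741 more (93.0% in all), with all 38 members found by name. It is a stand-in for the annotation used to count. Gene length was the union of annotated exons. Arginine and serine codons were counted in the longest complete coding sequence. Intervals used scipy 1.17.1, alignments Biopython 1.88 and plots matplotlib 3.10.9. The members and lists were chosen with earlier results of these data known. All members are accounted for; counts in every library are given for members with at least 10 counts in every library, called members and the 5 highest of each family, and from each further list the 3 highest and those called. Members and list genes named beyond this rule were chosen after their values were seen. Some sequences and single genes of the lists are not reported here.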

Additional observations from a re-analysis of the deposited data

How the results depend on the processing

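The 3 members called under the settings reported, SRSF10, HNRNPDL and HNRNPC, were also called with total counts as library size and with a Pearson statistic. With DESeq2 size factors SRSF9 was called as well, which made 2 of 5 SR genes against 47.5% of all names tested. With no count filter 3 SR and 7 hnRNP genes were called among 2914 of 14482 names (20.1%), among them SRSF8 and SRSF12, and HNRNPC was not. Leaving out each replicate in turn gave 0 to 2 SR genes, 0 to 1 hnRNP genes and 263 to 1093 names in all, the lowest counts without replicate 2; only the names above the count filter in the libraries kept were tested. The median CPM of the SR genes was 44.65 with TSIX removed from the denominator, and their median per kilobase 9.41 with the longest transcript as length. The median of the hnRNP genes, 2.96 CPM over all members, was 11.6 over members with a count and 5.16 over members with an intron. Without a replicate it ranged from 1.08 to 4.68 CPM, and per kilobase from 0.158 to 1.47. The SR share of gene-assigned counts was 0.0956% with TSIX removed, 0.0836% with SRSF2 put back, 0.0409% without SRSF9 and 0.0313% over members free of opposite-strand overlap; the last 2 were chosen after seeing the data and lowered the SR percentage of both families to 45.3% each. With protein-coding partners only, 1 SR and 3 hnRNP genes had an overlap. Leaving out members without an intron moved no family value by more than its SD. No paired analysis was possible because there is no second group of samples to pair with; families and gene pairs were compared within each library. The low counts per member limit all comparisons to large differences.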

Other observations

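Names with a hyphen were left out of the families by the rule of membership. HNRNPU-AS1, annotated as antisense to HNRNPU, received 456, 586 and 417 counts in replicates 1, 2 and 3, more in each library than the 27 hnRNP genes together with 191, 178 and 196. HNRNPUL2-BSCL2, a read-through name, had no count. Because the strand option of the counter is not given, the counts of HNRNPU-AS1 and HNRNPU cannot be assigned to a strand with certainty.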
